A study of Mus musculus with 16 samples.

Results

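The genes described here encode the nuclear subunits of the mitochondrial respiratory chain and of the ATP synthase, measured in mouse dendritic cells. They were chosen by symbol, as the genes whose name begins with Nduf, Uqcr, Cox4, Cox5, Cox6, Cox7, Cox8 or Atp5, or is Sdha, Sdhb, Sdhc, Sdhd, Cyc1 or Cycs, leaving out pseudogene symbols. The array annotation held 97 such symbols. Of these, 89 of the 22180 genes analysed had a probe set naming that gene alone, and the other 8 (Cox6c, Ndufb2, Ndufb4, Ndufb4b, Ndufb4c, Ndufs6, Ndufs6b and Uqcr10) shared every probe set with another symbol and were not used. The 89 genes comprise 32 subunits of complex I and 8 of its assembly factors, 4 of complex II, 8 of complex III, cytochrome c (Cycs), 18 of complex IV, the supercomplex factor Cox7a2l, and 17 of complex V, the ATP synthase.

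The cells were GM-DC, dendritic cells that had formed over 10 days in cultures of bone marrow under GM-CSF at 20 ng/ml. The marrow donors were male C57/B6 mice. Such cultures are known to hold macrophage-like cells beside dendritic cells. For the last 24 h they received IMQ and PA together, IMQ alone, PA alone, or a mock treatment, with 4 arrays from numbered biological replicates in each group. PA, read here as the saturated fatty acid palmitic acid, was given at 0.5 mM, bound to serum albumin with 6 molecules for each of albumin. IMQ, read here as imiquimod, which activates TLR7, was given at a dose that one label states as 3 uM and another as 3 ug/ml. The labels used here do not say whether the mock and IMQ cells received albumin, nor whether the replicates came from separate mice, so the p-values measure the spread between these arrays. Each array was hybridised with material from 200 ng of total RNA.

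In the respiratory chain, complex I passes electrons from NADH and complex II passes them from succinate to ubiquinone. Complex III hands them from ubiquinone to cytochrome c, and complex IV gives them to oxygen. The gradient of protons built on the way drives the ATP synthase. Dendritic cells activated through Toll-like receptors are known for a shift from oxidative phosphorylation towards glycolysis, and those grown with GM-CSF make nitric oxide, which binds to complex IV. The array measures RNA only, so protein amount, complex assembly and oxygen use were not measured.

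All values are the deposited log2 signals, and a change is a difference of log2 group means given with its standard error. Since probes differ in their response, no probe set's level is set against another's. A gene was called where limma's adjusted p (Benjamini-Hochberg over all 22180 genes) was under 0.05. A gene was counted as dim where all 4 group means lay below 4.93, a level taken from sensory receptor genes. The 4 dim genes here were Ndufa4l2, Cox8b, Cox8c and Cox7b2, and the other 85 lay above that level in at least 1 group. Each of the 89 genes was tested, whatever its level.

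Markers of dendritic cells were present, with all 11 measured above the dim level. All 10 macrophage markers were also above it, while 6 of 7 markers of mast cells and basophils and all 7 of lymphocytes were dim, as were 4 of 10 of neutrophils. By Il6, an inflammatory cytokine, 5 arrays without IMQ stood apart. PA replicates 3 and 4 read 7.43 and 8.22, and the first 3 mock replicates read 7.57, 7.90 and 7.71. The other PA and mock arrays lay between 4.0 and 4.32, and the lowest array with IMQ read 11.86. The counts over all 89 genes, by complex and by list are therefore also given without those 5 arrays, which leaves 1 mock and 2 PA arrays whose spread is then taken to be that of the other groups.

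The map of all genes by array shows what each array read. Of the 89 genes, 43 were called with IMQ alone (IMQ minus mock), 8 higher and 35 lower, against 34.8% of all genes and 52.1% of the genes that were not dim. The share called lies near the second of these backgrounds. By direction, 39.3% of the 89 genes were called lower, against 17.9% of all genes and 27.3% of those not dim, and 8.99% were called higher, against 17.0% and 24.9%. The median change was -0.11 over the 89 genes and 0.01 over all genes. The IMQ and mock arrays did not overlap for 44 of the 89 genes, against 34.2% of all genes. Without the 5 arrays that stood apart, 35 genes were called, 6 higher and 29 lower, 33 of them among the 43. Since whole cultures were measured, a smaller number of cells of one kind and less RNA per cell cannot be told apart.

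**Figure D1:**
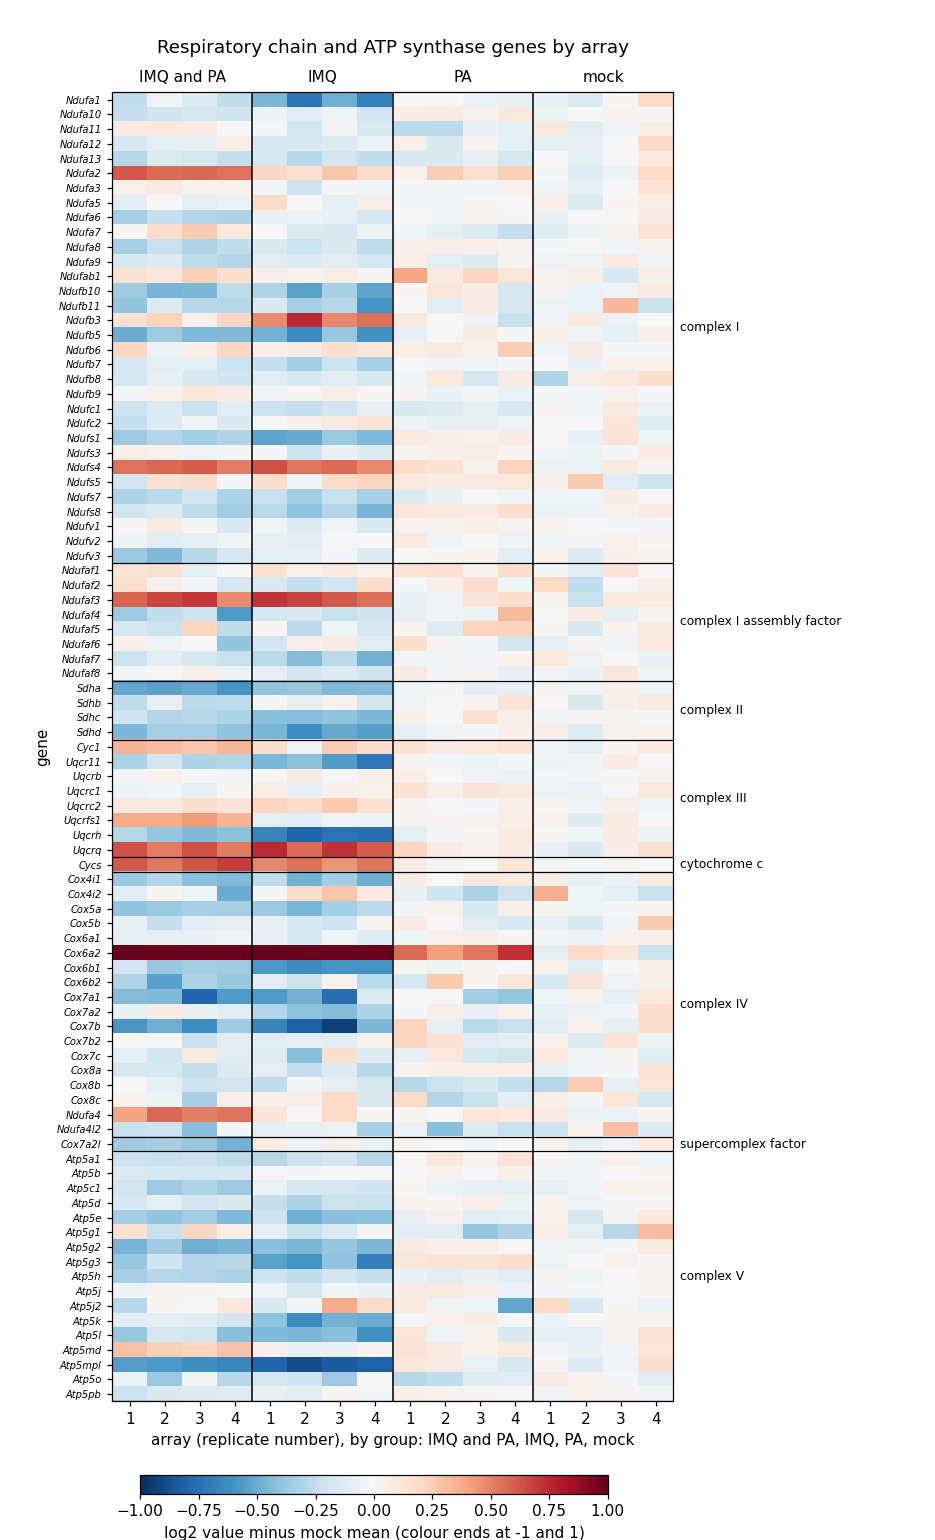
Each row is a gene, grouped by complex, and each column an array, with the groups IMQ and PA, IMQ, PA and mock running left to right. Colour gives the log2 value minus the mock mean of that gene, with the scale ending at -1 and 1. Most coloured rows, blue for lower and red for higher, separate both groups with IMQ from both groups without it, and Cox6a2 lies beyond the red end in all 8 arrays with IMQ.

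With IMQ the macrophage markers changed as well, 3 of 10 higher (such as Marco, 3.04) and 7 lower (such as Mrc1, -3.62). Their mean log2 level lay between 9.53 and 9.61 in IMQ arrays and between 10.2 and 10.3 in mock arrays. The mean of the 11 dendritic cell markers lay between 9.38 and 9.41 in IMQ arrays and between 9.38 and 9.47 in mock arrays, with 4 called higher and 7 lower. Single markers moved more than this mean. Cd86 averaged 8.31 in IMQ cells, against 6.90 in mock cells, and Itgax 9.39, against 11.09. The part of cell composition in the changes below was not tested.

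Complex I is the entry point for NADH, and its core subunits carry the flavin and the iron-sulfur clusters. Of 32 subunits, 3 rose and 11 fell with IMQ (2 and 9 without the 5 arrays that stood apart), with a median change of -0.10. Among the 6 core subunits measured, Ndufs1, Ndufs7 and Ndufs8, which hold iron-sulfur clusters, fell, and none rose. Ndufs1, the largest subunit, read 7.67, 7.69, 7.82 and 7.75 in IMQ cells, against 8.19, 8.11, 8.32 and 8.15 in mock cells. No IMQ array reached the lowest mock array, and Ndufs1 fell by 0.46 ± 0.0508 (SE, adjusted p = 1.64e-06). Ndufs7 fell by 0.28 and Ndufs8 by 0.36. Ndufv1, which binds NADH and the flavin, read 8.14, 8.05, 8.14 and 8.04 in IMQ cells, against 8.22, 8.18, 8.17 and 8.17 in mock cells. Its groups did not overlap, but its change of -0.09 ± 0.0510 (SE) did not pass the test (adjusted p = 0.209).

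The accessory subunits of complex I, which surround the core and stabilise it, went both ways. Ndufa1, a small membrane subunit, read 8.33, 8.06, 8.30 and 8.10 in IMQ cells, against 8.72, 8.64, 8.80 and 8.97 in mock cells. All IMQ arrays lay below all mock arrays, with a fall of 0.59 ± 0.0781 (SE, adjusted p = 1.43e-05). Ndufb5 and Ndufb10, both of the membrane arm, fell by 0.52 and 0.42. Ndufb3, also of the membrane arm, went the other way and read 7.08, 7.36, 7.09 and 7.16 in IMQ cells, against 6.58, 6.70, 6.55 and 6.61 in mock cells. Its lowest IMQ array lay above its highest mock array, with a rise of 0.56 ± 0.0749 (SE, adjusted p = 1.39e-05). Ndufs4, an accessory subunit of the NADH-oxidising module, rose by 0.56 ± 0.0527 (SE, adjusted p = 2.97e-07). Ndufa2 was called higher, at 0.20, but its IMQ and mock arrays overlapped, and without the 5 arrays that stood apart its change was 0.01 (adjusted p = 0.97). The fall of Ndufb11, at -0.34, likewise came from overlapping arrays and was -0.11 without those arrays (adjusted p = 0.679).

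Of the 8 assembly factors of complex I, 1 rose and 2 fell (1 and 0 without the 5 arrays). Ndufaf3, which takes part in building the ubiquinone-binding module, read 8.40, 8.36, 8.30 and 8.23 in IMQ cells, against 7.72, 7.46, 7.78 and 7.78 in mock cells. The groups were well apart, and the rise was 0.64 ± 0.0793 (SE, adjusted p = 6.5e-06). Ndufaf7, a methyltransferase that modifies a core subunit, fell by 0.36 ± 0.0568 (SE, adjusted p = 7.99e-05), but without the 5 arrays its change was -0.29 (adjusted p = 0.0556). Ndufaf8 was called at a change of -0.15, a call that held in 10 of 24 alternative settings.

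Complex II is succinate dehydrogenase, which also serves the citrate cycle and is encoded wholly in the nucleus. Of its 4 subunits, 3 fell with IMQ, also without the 5 arrays, with a median of -0.42. Sdha, the flavoprotein that oxidises succinate, read 9.79, 9.81, 9.75 and 9.76 in IMQ cells, against 10.21, 10.15, 10.25 and 10.15 in mock cells. Every IMQ array lay below every mock array, and the fall was 0.42 ± 0.0412 (SE, adjusted p = 4.95e-07). Sdhd, one of the membrane anchors, read 9.01, 8.85, 8.96 and 8.92 in IMQ cells, against 9.52, 9.35, 9.5 and 9.51 in mock cells. Here too the groups were apart, with a fall of 0.53 ± 0.0541 (SE, adjusted p = 6.42e-07), a change of -30.9% on the linear scale. Sdhc, the other anchor, fell by 0.43 ± 0.0429 (SE, adjusted p = 6.17e-07). Sdhb, the iron-sulfur subunit, read 8.84, 8.76, 8.89 and 8.66 in IMQ cells, against 8.85, 8.70, 8.90 and 8.95 in mock cells. These arrays overlapped, and the change of -0.06 ± 0.0667 (SE) did not pass the test (adjusted p = 0.537).

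Promoter windows of 3 genes that fell (Sdha, Sdhd and Uqcrh of complex III) and of Cycs, which rose, are shown because 2 motifs known from promoters of respiratory genes can be set side by side in them. Genes that fell and hold neither motif, such as Ndufa1, Cox7b and Ndufb5, are not shown, so these windows do not line up motif with direction. The windows run from 250 bases before to 50 after the start of the gene on its own strand, from RefSeq (GRCm38.p6). All 4 genes lie on the minus strand, Sdha at chr13:74350191-74350490, Sdhd at chr9:50603800-50604099, Uqcrh at chr4:116075021-116075320 and Cycs at chr6:50566520-50566819. Capitals mark the NRF-1 motif (GCGC, any base, TGCGC) and the ETS/GABP motif (CCGGAAG) read on either strand.
Sdha: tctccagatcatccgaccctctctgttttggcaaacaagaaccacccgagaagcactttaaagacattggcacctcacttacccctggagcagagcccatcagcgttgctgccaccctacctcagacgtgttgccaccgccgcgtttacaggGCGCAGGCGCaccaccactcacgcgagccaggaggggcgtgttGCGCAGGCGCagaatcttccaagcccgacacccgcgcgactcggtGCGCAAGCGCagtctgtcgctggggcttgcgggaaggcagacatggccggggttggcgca
Sdhd: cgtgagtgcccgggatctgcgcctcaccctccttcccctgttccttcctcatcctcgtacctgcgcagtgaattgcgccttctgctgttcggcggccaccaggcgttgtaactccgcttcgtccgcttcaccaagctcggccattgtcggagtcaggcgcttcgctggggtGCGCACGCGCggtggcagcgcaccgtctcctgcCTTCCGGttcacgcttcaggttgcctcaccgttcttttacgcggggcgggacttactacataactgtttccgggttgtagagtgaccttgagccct
Uqcrh: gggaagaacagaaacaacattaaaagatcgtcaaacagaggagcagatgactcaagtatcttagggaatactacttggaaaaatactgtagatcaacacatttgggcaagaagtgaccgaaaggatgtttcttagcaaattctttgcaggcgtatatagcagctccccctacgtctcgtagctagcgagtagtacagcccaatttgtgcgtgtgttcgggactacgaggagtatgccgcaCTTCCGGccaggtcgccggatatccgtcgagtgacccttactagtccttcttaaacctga
Cycs: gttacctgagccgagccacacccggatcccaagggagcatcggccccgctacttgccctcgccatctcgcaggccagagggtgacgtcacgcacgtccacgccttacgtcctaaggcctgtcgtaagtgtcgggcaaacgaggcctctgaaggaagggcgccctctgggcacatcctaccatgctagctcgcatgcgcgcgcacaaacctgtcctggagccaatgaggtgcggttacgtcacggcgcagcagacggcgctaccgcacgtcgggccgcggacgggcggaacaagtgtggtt
The Sdha window held 3 NRF-1 matches, that of Sdhd 1 match of each motif, that of Uqcrh 1 ETS/GABP match, and that of Cycs 0 of either. Only exact strings were counted, and near matches were not counted in any window. The Cycs window holds tcgcatgcgc, which differs from the NRF-1 motif in its first base alone, so it is not shown to lack such a site. A match is a string of letters, and its use in these cells was not measured.

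Some genes had several promoter windows, and a gene was counted where any of its windows held the motif. Over the 73 genes with a promoter window, 17 (23.3%) held the NRF-1 motif, against 7.24% of all 16990 genes with a window. The ETS/GABP motif was in 19 (26%), against 12.7% of all genes with a window, and the YY1 motif (AAGATGG) in 11 (15.1%), against 7.32%. The ERR motif (AAGGTCA) was in 6 (8.22%), against 4.67%, and the CCAAT box in 31 (42.5%), against 41.6%. Of motifs known from immune promoters, the ISRE (GAAA, any pair of bases, GAAA) was in 2 genes (2.74%), against 3.87%, and the NF-kB motif (GGGA, any base, TTTCC) in 0, against 0.500%. Both strands were read for each motif, and no match of one motif in the windows of these 73 genes overlapped a match of another. With IMQ, 8 of the 17 genes with an NRF-1 match were called lower and 0 higher, beside 22 lower and 4 higher of the 56 without one. For the ETS/GABP motif, 12 of 19 genes with a match were called lower and 0 higher, beside 18 lower and 4 higher of 54 without. For YY1, 3 of 11 were called lower and 1 higher, beside 27 lower and 3 higher of 62 without. For ERR, 5 of 6 were called lower and 0 higher, beside 25 lower and 4 higher of 67 without. Of the 31 genes with a CCAAT box, 15 were called lower and 3 higher, beside 15 lower and 1 higher of 42 without. Whether these shares differ was not tested.

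Complex III, the cytochrome bc1 complex, had members going both ways, with 2 of 8 higher, 2 lower (1 and 2 without the 5 arrays) and a median of 0.03. Uqcrh, the acidic hinge protein that contacts cytochrome c1, read 7.59, 7.47, 7.52 and 7.5 in IMQ cells, against 8.27, 8.22, 8.34 and 8.21 in mock cells. The highest IMQ array lay well below the lowest mock array, with a fall of 0.74 ± 0.0535 (SE, adjusted p = 1.13e-08), a change of -40.0% on the linear scale. Uqcr11, the smallest subunit, fell by 0.54 ± 0.0611 (SE, adjusted p = 2.43e-06). Uqcrq, a small subunit near the ubiquinone site, read 7.0, 6.81, 6.97 and 6.86 in IMQ cells, against 6.18, 6.10, 6.30 and 6.40 in mock cells. Its groups were apart in the other direction, with a rise of 0.66 ± 0.0699 (SE, adjusted p = 1.05e-06). The other gene called higher was the core subunit Uqcrc2, with a mean of 9.67 in IMQ cells, against 9.47 in mock cells. The catalytic subunits moved less. Cyc1, cytochrome c1, changed by 0.13 ± 0.0576 and Uqcrfs1, the Rieske iron-sulfur protein, by -0.08 ± 0.0489, and neither passed the test (adjusted p = 0.0877 and 0.267). Cyc1 passed it in 4 alternative settings, among them where dim genes were left out (adjusted p = 0.0454, in a range of 0.00936 to 0.864 over its alternatives). The core subunit Uqcrc1 read 9.44, 9.29, 9.42 and 9.41 in IMQ cells, against 9.33, 9.31, 9.37 and 9.46 in mock cells, overlapping and with a change of 0.02 (adjusted p = 0.782).

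Cycs encodes cytochrome c, the carrier between complexes III and IV that also triggers apoptosis when released from mitochondria. It read 10.40, 10.46, 10.36 and 10.45 in IMQ cells, against 9.90, 9.90, 9.94 and 9.91 in mock cells. Every IMQ array lay above every mock array, and the rise was 0.51 ± 0.0462 (SE, adjusted p = 1.91e-07), a fold of 1.42. Cycs had 5 probe sets, a pair of them with identical values, and the other 4 changed by 0.72, 0.35, 0.35 and 0.39. Processed copies of Cycs in the genome can share such probes.

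Complex IV, cytochrome c oxidase, had 1 gene higher and 7 lower of 18, in the same numbers without the 5 arrays, with a median of -0.13. These 18 include all 4 dim genes, whose signals are too close to background to show a change. The gene that rose was Cox6a2, the isoform of subunit 6a known from heart and skeletal muscle. It read 8.07, 7.98, 8.15 and 7.94 in IMQ cells, against 5.68, 5.97, 5.88 and 5.56 in mock cells. With 2.26 ± 0.0884 (SE, adjusted p = 6.57e-12), a fold of 4.80, this was the largest change of the 89 genes in any comparison, and its arrays were far apart. The paralog Cox6a1, known as the form of most other tissues, changed by -0.10 (adjusted p = 0.0922).

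The subunits of complex IV that fell were Cox4i1, Cox5a, Cox6b1, Cox7a1, Cox7a2, Cox7b and Cox8a. Cox7b, a small membrane subunit, read 8.84, 8.69, 8.58 and 9.06 in IMQ cells, against 9.41, 9.55, 9.41 and 9.67 in mock cells. The groups did not overlap, though the IMQ arrays were spread widely, and the fall was 0.72 ± 0.115 (SE, adjusted p = 9.85e-05). Its second probe set changed by -0.32. Cox6b1, which faces the intermembrane space, read 9.03, 8.96, 9.01 and 9.0 in IMQ cells, against 9.64, 9.49, 9.60 and 9.66 in mock cells. It fell by 0.60 ± 0.0508 (SE, adjusted p = 7.79e-08) with the groups apart.

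Cox4i1 and Cox5a join complex IV early in its assembly. Cox4i1 read 9.35, 9.13, 9.25 and 9.11 in IMQ cells, against 9.65, 9.52, 9.54 and 9.69 in mock cells, without overlap and with a fall of 0.39 ± 0.0605 (SE, adjusted p = 6.81e-05). Cox5a read 9.25, 9.16, 9.28 and 9.36 in IMQ cells, against 9.65, 9.57, 9.61 and 9.65 in mock cells, and fell by 0.36 ± 0.0541 (SE, adjusted p = 5.39e-05), again without overlap. Of their relatives, Cox4i2, the form of subunit 4 known from lung and low oxygen, read 4.95, 5.14, 5.23 and 5.06 in IMQ cells, against 5.31, 4.91, 4.87 and 4.74 in mock cells. Its arrays overlapped close to the dim level, with a change of 0.14 (adjusted p = 0.453). Ndufa4, once assigned to complex I and now to complex IV, changed by 0.08 (adjusted p = 0.309). Its paralog Ndufa4l2, known to be induced by low oxygen, was dim in all groups, at 4.11, 4.12, 4.14 and 3.87 in IMQ cells, against 3.99, 4.23, 4.50 and 4.06 in mock cells, a change of -0.13 (adjusted p = 0.414). Cox7a2l, which joins complexes III and IV and which C57/B6 mice are known to carry in a shortened form, changed by 0.00 (adjusted p = 0.973).

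Complex V had 10 of 17 subunits lower and 0 higher (8 and 0 without the 5 arrays), with a median of -0.22. Atp5mpl, a small proteolipid of the membrane part, read 8.32, 8.22, 8.28 and 8.30 in IMQ cells, against 9.12, 8.97, 9.07 and 9.27 in mock cells. It had the largest fall of the 89 genes, at 0.83 ± 0.0684 (SE, adjusted p = 5.51e-08) and a change of -43.7% on the linear scale, with the groups far apart. Of the 3 genes for the proton-carrying c subunit, Atp5g2 and Atp5g3 fell by 0.43 and 0.56, and Atp5g1 changed by -0.11 (adjusted p = 0.514). Atp5k and Atp5l, the e and g subunits known for the pairing of synthases, fell by 0.50 and 0.48.

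The catalytic head of the synthase gave smaller values. Atp5a1, the alpha subunit, read 10.72, 10.78, 10.81 and 10.72 in IMQ cells, against 11.01, 10.97, 11.04 and 10.97 in mock cells. The groups did not overlap and the fall was 0.24 ± 0.0428 (SE, adjusted p = 0.000289). Without the 5 arrays that stood apart it changed by -0.21 (adjusted p = 0.0685). Atp5b, the catalytic beta subunit, read 11.56, 11.54, 11.56 and 11.56 in IMQ cells, against 11.55, 11.55, 11.56 and 11.59 in mock cells, a change of -0.01 (adjusted p = 0.89) with overlapping arrays. Atp5d and Atp5e, of the central stalk, fell by 0.25 and 0.38, while of the side stalk Atp5h fell by 0.22 ± 0.0375 (SE, adjusted p = 0.00018), without overlap. Atp5j, Atp5o and Atp5pb, also of the side stalk, changed by -0.08, -0.19 and -0.04 and were not called. Further probe sets of Atp5e and Atp5h, at -0.07 and -0.01, moved little, against -0.38 and -0.22 for those used.

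**Figure D2:**
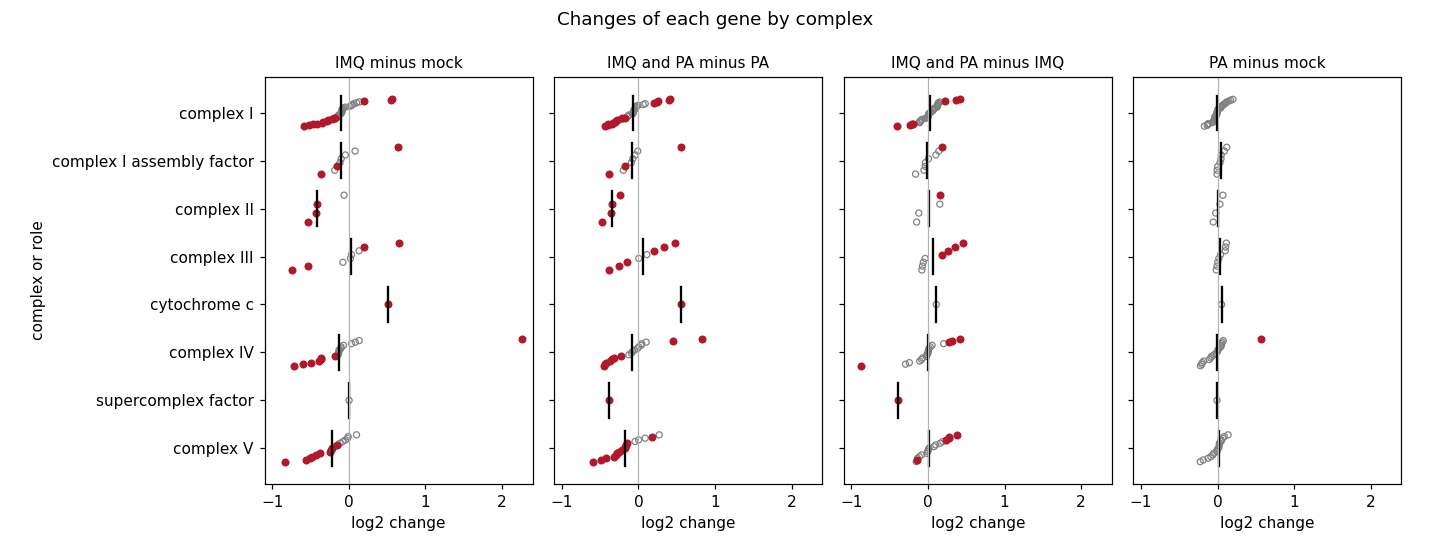
Each point is 1 gene, placed by its log2 change on the x axis and by complex or role on the y axis, with a panel for each comparison. Filled points passed the test (adjusted p under 0.05), open points did not, and the bar is the median of the row. In the first panel, with IMQ alone, the bar of complex II stands at -0.42 and that of complex V at -0.22, and Cox6a2 of complex IV lies at 2.26. In the last, with PA alone, 1 point is filled.

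The change with IMQ was measured a second time in cells that also had PA (IMQ and PA minus PA). Its group means come from arrays that the first comparison did not use. The spread of each gene was taken from all 16 arrays in both comparisons, so their calls are not fully separate. In this second comparison 52 of the 89 genes were called, 13 higher and 39 lower. That is 58.4%, against 35.3% of all genes and, closer to it, 53.3% of those not dim. Of the 89, 43.8% were called lower, against 18.5% of all genes and 28.3% of those not dim, and 14.6% were called higher, against 16.8% and 25.0%. The arrays did not overlap for 54 genes, against 35.7% of all genes. The median was -0.12, beside 0.00 over all genes. Without the arrays that stood apart, 44 were called, 9 higher and 35 lower. Of the 35 genes lower with IMQ alone, 28 (80.0%) were also lower here, and these were 71.8% of the 39, against 74.0% and 71.3% over all genes. Of the 8 genes higher with IMQ alone, 7 (87.5%) were also higher here, which is 53.8% of the 13, against 66.7% and 67.5% over all genes. Macrophage markers were 2 higher and 7 lower of 10, with a mean level between 9.37 and 9.42 in IMQ and PA arrays and of 10.1 in each PA array, and their part in the changes was not tested.

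By complex, 5 of 32 subunits of complex I rose and 10 fell, all 4 of complex II fell, and 3 of 8 of complex III rose and 3 fell. In complex IV 2 of 18 rose and 7 fell, and in complex V 1 of 17 rose and 12 fell. Without the arrays that stood apart, 3 rose and 9 fell in complex I, 0 and 3 in complex II, 2 and 2 in complex III, 2 and 8 in complex IV and 0 and 11 in complex V. Sdha read 9.68, 9.65, 9.69 and 9.60 in IMQ and PA cells, against 10.15, 10.17, 10.10 and 10.11 in PA cells, and fell by 0.48 ± 0.0412 (SE, adjusted p = 8.26e-08) without overlap. Sdhb, not called with IMQ alone, read 8.60, 8.77, 8.59 and 8.60 in IMQ and PA cells, against 8.82, 8.84, 8.88 and 8.98 in PA cells. Its arrays did not overlap and it fell by 0.24 ± 0.0667 (SE, adjusted p = 0.00907). Without the arrays that stood apart the change of Sdhb was -0.19 (adjusted p = 0.106). Sdhc fell by 0.34 and Sdhd by 0.36.

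Of the other genes that fell with IMQ in the presence of PA, Atp5mpl read 8.56, 8.53, 8.49 and 8.46 in IMQ and PA cells, against 9.22, 9.19, 9.05 and 8.95 in PA cells. Its fall of 0.59 ± 0.0684 (SE, adjusted p = 2.68e-06) was the largest of this comparison and the groups did not overlap. Atp5g2 read 10.40, 10.51, 10.38 and 10.40 in IMQ and PA cells, against 10.94, 10.92, 10.91 and 10.87 in PA cells, and fell by 0.49 ± 0.0449 (SE, adjusted p = 1.8e-07), as did its second probe set at -0.47. Cox4i1 read 9.24, 9.31, 9.19 and 9.16 in IMQ and PA cells, against 9.68, 9.62, 9.71 and 9.70 in PA cells, a fall of 0.45 ± 0.0605 (SE, adjusted p = 1.34e-05) without overlap. Ndufb5 read 7.29, 7.43, 7.34 and 7.34 in IMQ and PA cells, against 7.71, 7.79, 7.86 and 7.77 in PA cells, and fell by 0.43 ± 0.0625 (SE, adjusted p = 3.15e-05). Ndufs1 fell by 0.39, Cox5a by 0.34 and Atp5a1 by 0.29.

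Of the genes that rose, Cycs read 10.52, 10.44, 10.54 and 10.60 in IMQ and PA cells, against 9.99, 9.94, 9.90 and 10.03 in PA cells, and rose by 0.56 ± 0.0462 (SE, adjusted p = 4.79e-08). Ndufaf3 read 8.27, 8.35, 8.39 and 8.16 in IMQ and PA cells, against 7.62, 7.65, 7.81 and 7.85 in PA cells, and rose by 0.56 ± 0.0793 (SE, adjusted p = 2.64e-05). Both had groups apart. Uqcrq read 6.89, 6.76, 6.89 and 6.77 in IMQ and PA cells, against 6.47, 6.33, 6.28 and 6.32 in PA cells, a rise of 0.48 ± 0.0699 (SE, adjusted p = 3.37e-05) without overlap. Ndufs4 rose by 0.41 ± 0.0527 (SE, adjusted p = 8.41e-06). Cox6a2 read 7.11, 7.09, 7.23 and 7.21 in IMQ and PA cells, against 6.34, 6.18, 6.31 and 6.5 in PA cells. That rise of 0.83 ± 0.0884 (SE, adjusted p = 1.08e-06) was the largest of the comparison.

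The remaining comparisons ask what PA did to these genes. In cells without IMQ (PA minus mock), 1 of the 89 genes was called, against 1.49% of all genes and 2.12% of those not dim, and the median change was 0.00. The PA and mock arrays did not overlap for 7 of the 89 genes, against 9.92% of all genes. The gene called was Cox6a2, which rose, as did 1.05% of all genes and 1.68% of those not dim. Cox6a2 read 6.34, 6.18, 6.31 and 6.5 in PA cells, against 5.68, 5.97, 5.88 and 5.56 in mock cells. The groups did not overlap and the rise was 0.56 ± 0.0884 (SE, adjusted p = 0.00344). The call was lost in 2 of 24 alternative settings, at an adjusted p of 0.0566 with only these groups in the fit and of 0.0807 without the arrays that stood apart, in a range starting at 6.91e-05. Without those arrays the change was 0.70. The other changes lay between -0.23 (Atp5g1) and 0.20 (Ndufab1), and none of the 4 subunits of complex II changed by more than 0.07 in either direction.

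In cells with IMQ (IMQ and PA minus IMQ), 23 of the 89 genes were called, 16 higher and 7 lower. That is 25.8%, which lies between the 21.1% of all genes and the 32.2% of those not dim. By direction, 17.98% of the 89 genes were called higher, against 11.6% of all genes and 18.1% of those not dim, and 7.87% lower, against 9.44% and 14.1%. The arrays did not overlap for 34 of the 89 genes, against 23.5% of all genes. The median was 0.01, beside -0.02 over all genes. The balance of directions depended on scaling, with 13 higher and 11 lower after a repeated quantile normalization and 16 higher and 4 lower after centring each array on its median. Without the arrays that stood apart, 21 were called, 14 higher and 7 lower. Those arrays are mock and PA arrays, which this comparison does not use. The changes were thus the same without them, and only the shared spread and the adjustment moved. In complex III 4 of 8 rose and 0 fell, in complex V 4 of 17 rose and 1 fell, in complex IV 3 of 18 rose and 1 fell, and in complex I 3 of 32 rose and 4 fell. Without those arrays the counts were 3 and 0 in complex III and did not change in complexes I, II, IV and V. Macrophage markers also changed here, 2 of 10 higher and 7 lower, with a mean level between 9.37 and 9.42 in IMQ and PA arrays and between 9.53 and 9.61 in IMQ arrays, and their part in these changes was not tested.

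Uqcrfs1, the Rieske protein of complex III, read 7.49, 7.5, 7.55 and 7.47 in IMQ and PA cells, against 7.02, 7.01, 7.09 and 7.07 in IMQ cells. All arrays with PA lay above all without, and the rise of 0.45 ± 0.0489 (SE, adjusted p = 4e-06) was the largest of this comparison. Ndufa4 read 8.79, 8.97, 8.90 and 8.94 in IMQ and PA cells, against 8.53, 8.40, 8.59 and 8.41 in IMQ cells, and rose by 0.42 ± 0.0583 (SE, adjusted p = 5.34e-05) without overlap. Ndufa1 read 8.54, 8.75, 8.65 and 8.54 in IMQ and PA cells, against 8.33, 8.06, 8.30 and 8.10 in IMQ cells. It rose by 0.42 ± 0.0781 (SE, adjusted p = 0.000874). Atp5k read 8.52, 8.54, 8.52 and 8.47 in IMQ and PA cells, against 8.24, 8.0, 8.16 and 8.14 in IMQ cells, with a rise of 0.38 ± 0.0505 (SE, adjusted p = 3.87e-05) and no overlap. Ndufa2 rose by 0.37 ± 0.0653 (SE, adjusted p = 0.000556).

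Uqcrh rose by 0.36 ± 0.0535 (SE, adjusted p = 0.000117), and its 4 values in IMQ and PA cells, 7.97, 7.87, 7.82 and 7.85, lay above the IMQ arrays and below the PA arrays, which read 8.17, 8.24, 8.27 and 8.36. Cox6b1 rose by 0.28 ± 0.0508 (SE, adjusted p = 0.000707) and Cox7a2 by 0.32 ± 0.0629 (SE, adjusted p = 0.00156). Smaller rises were those of Atp5mpl, at 0.23, called in 20 of 24 alternative settings, and of Sdhc, called in 21. Sdhc read 8.40, 8.31, 8.32 and 8.28 in IMQ and PA cells, against 8.18, 8.17, 8.20 and 8.14 in IMQ cells, a rise of 0.16 ± 0.0429 (SE, adjusted p = 0.016). Cyc1 read 7.85, 7.82, 7.79 and 7.85 in IMQ and PA cells, against 7.67, 7.48, 7.75 and 7.68 in IMQ cells, a rise of 0.18 ± 0.0576 (SE, adjusted p = 0.0348) that held in 15 of 24 alternative settings. Its call was lost when IMQ replicate 1, 2 or 4, or IMQ and PA replicate 1, 2 or 4, was left out. Ndufaf7 was called at 0.19 (adjusted p = 0.0289) in 17 of 24. That call was lost when IMQ replicate 2 or 4, or IMQ and PA replicate 2 or 3, was left out. Several of the 24 settings leave out mock or PA arrays, which this comparison does not use, so they cannot alter its changes. Since this comparison and that of IMQ with mock use the same IMQ arrays, opposite signs in the 2 do not stand as separate evidence.

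With PA in cells with IMQ, 7 genes fell. Cox6a2 read 7.11, 7.09, 7.23 and 7.21 in IMQ and PA cells, against 8.07, 7.98, 8.15 and 7.94 in IMQ cells, and fell by 0.87 ± 0.0884 (SE, adjusted p = 2e-06) without overlap. Cox7a2l read 8.06, 8.08, 8.04 and 7.94 in IMQ and PA cells, against 8.49, 8.36, 8.48 and 8.35 in IMQ cells. Every array with PA lay below every array without it, and it fell by 0.39 ± 0.0536 (SE, adjusted p = 5.34e-05). Ndufb3 read 6.76, 6.84, 6.66 and 6.82 in IMQ and PA cells, against 7.08, 7.36, 7.09 and 7.16 in IMQ cells, a fall of 0.40 ± 0.0749 (SE, adjusted p = 0.000856). Ndufv3, a small subunit of the NADH-binding module, read 7.39, 7.31, 7.48 and 7.59 in IMQ and PA cells, against 7.66, 7.66, 7.74 and 7.63 in IMQ cells, and fell by 0.23 ± 0.0622 (SE, adjusted p = 0.0144), a call that held in 22 of 24 alternative settings. Atp5b read 11.43, 11.40, 11.39 and 11.40 in IMQ and PA cells, against 11.56, 11.54, 11.56 and 11.56 in IMQ cells, with a small fall of 0.15 ± 0.0355 (SE, adjusted p = 0.00688), also called in 22 of 24. Ndufa6 and Ndufc2, further subunits of complex I, fell by 0.20 and 0.20.

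**Figure D3:**
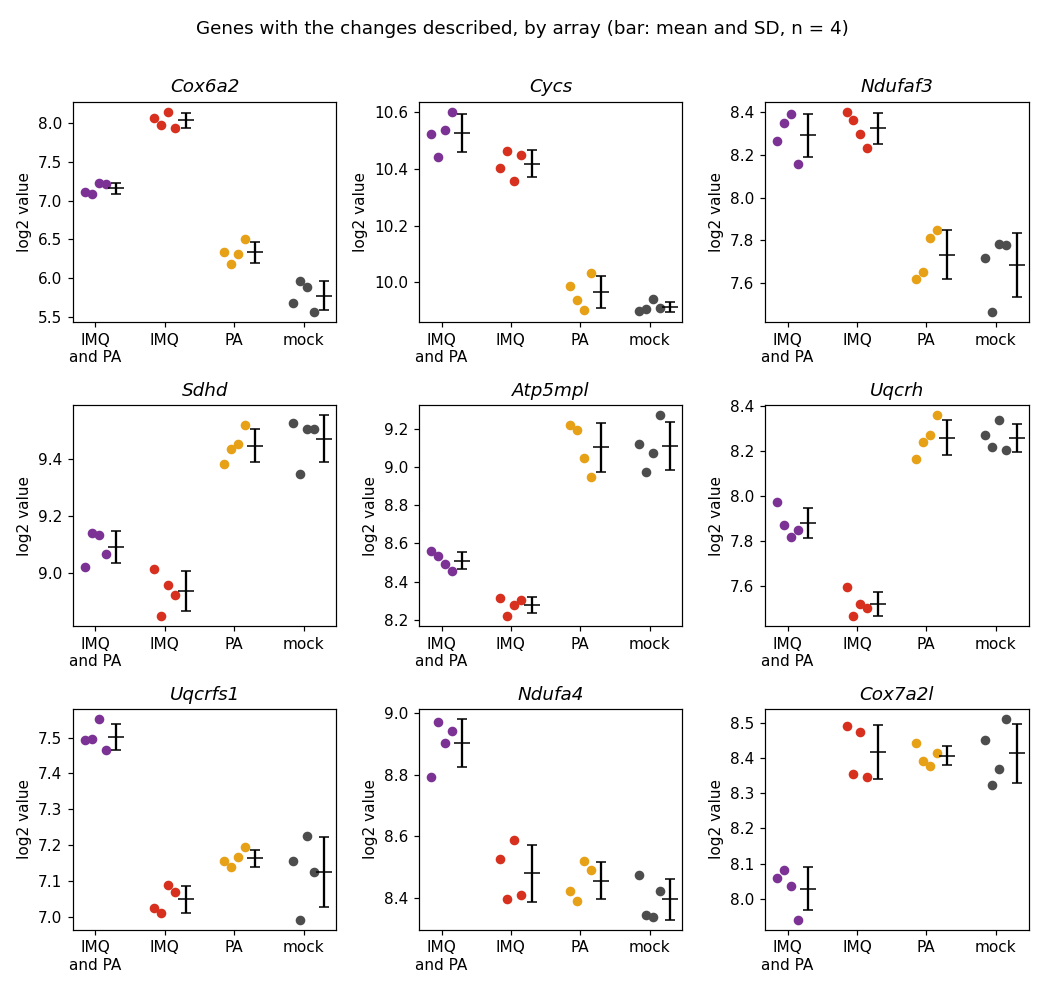
Log2 value of 9 genes on the y axis (ranges differ between panels) in each of the 4 arrays of the groups IMQ and PA, IMQ, PA and mock, left to right. The bar beside the points is the mean with its SD (n = 4). Cox6a2 is highest with IMQ alone, Cycs and Ndufaf3 are high in both groups with IMQ, and Sdhd, Atp5mpl and Uqcrh are low in both. Uqcrfs1 and Ndufa4 are high, and Cox7a2l low, where IMQ and PA were combined.

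Whether the change with PA differed between cells with and without IMQ was tested as an interaction, which is the change with PA in cells with IMQ minus that in cells without. It passed for 15 of the 89 genes, 10 higher and 5 lower. That is 16.9%, which lies between the 13.6% of all genes and the 20.6% of those not dim. Without the arrays that stood apart 4 were called, which were Ndufa1, Ndufa11, Uqcrfs1 and Cox6a2, while several of the others kept a change of similar or larger size, given below. For Cox6a2 the interaction was -1.44 ± 0.125 (SE, adjusted p = 1.04e-06), with a change with PA of -0.87 in cells with IMQ and of 0.56 in cells without. It was negative and called in all 23 alternative settings.

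For Uqcrfs1 the interaction was 0.41 ± 0.0692 (SE, adjusted p = 0.000632), with PA cells at 7.16, 7.14, 7.17 and 7.19, against mock cells at 7.16, 6.99, 7.22 and 7.12. For Ndufa1 it was 0.45 ± 0.110 (SE, adjusted p = 0.0114), and for Ndufa11, an accessory subunit of the membrane arm, 0.33 ± 0.0889 (SE, adjusted p = 0.0213). With PA, Ndufa11 changed by 0.16 in cells with IMQ and by -0.17 in cells without, and neither change was called. Its second probe set gave 0.17 and 0.03, a smaller difference that was not tested. Cox7a2l (-0.38), Ndufa4 (0.36), Uqcrh (0.36), Atp5k (0.36) and Cox6b1 (0.28) each lost the call in 1 of 23 alternative settings, that without the arrays that stood apart. Their changes there were -0.29, 0.44, 0.36, 0.39 and 0.36, on fewer arrays. The call of Ndufb3 (-0.36) held in 11 of 23 and its change without those arrays was -0.45. Those of Ndufa7 (0.35) and Cox7a2 (0.31) held in 15 and 17, with changes of 0.43 and 0.46. The calls of Ndufa6 (-0.20) and Uqcr11 (0.28) held in 5 of 23, and that of Atp5b (-0.17) in 10. Without those arrays the changes of Ndufa6 and Atp5b were smaller, at -0.10 and -0.14.

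**Figure D4:**
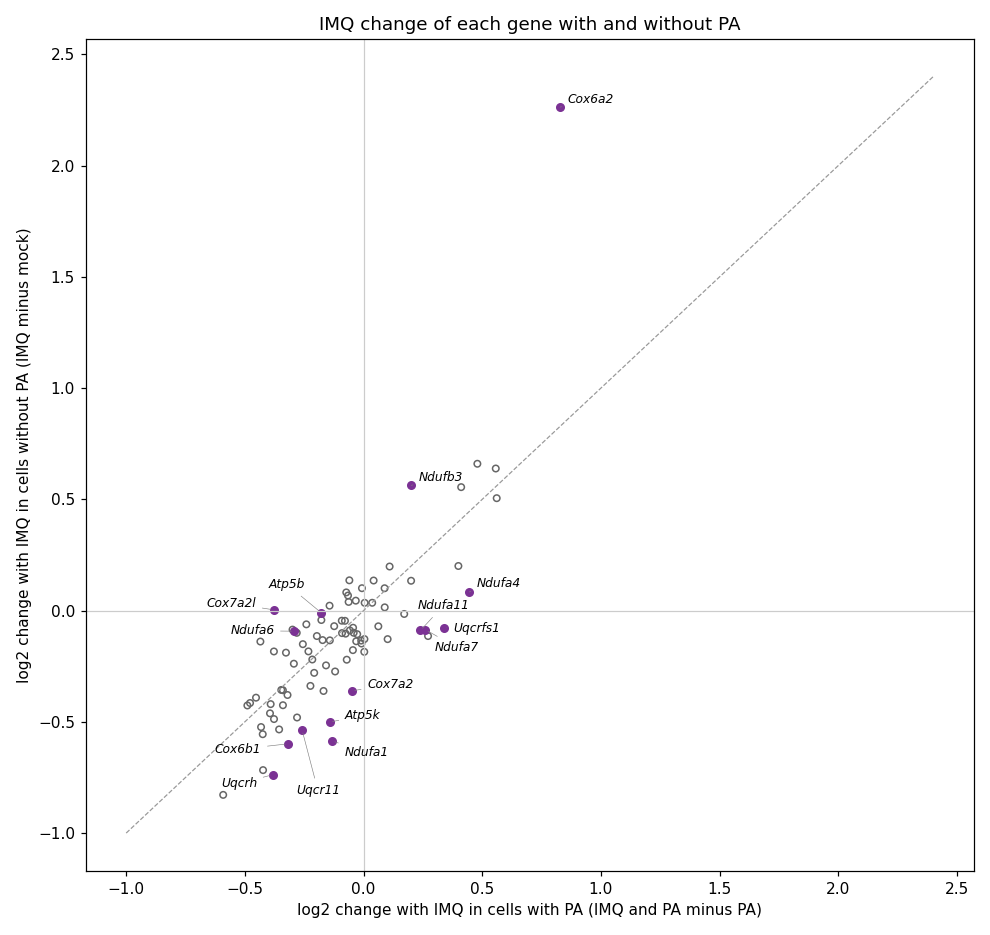
Each point is 1 gene, with its log2 change with IMQ in cells with PA on the x axis and in cells without PA on the y axis. Filled, named points passed the interaction test and the dashed line marks equal changes. Cox6a2, at 0.83 and 2.26, stands far above the line. All other genes lie between -0.83 and 0.66 on the y axis and between -0.59 and 0.56 on the x axis.

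The respiratory chain also needs genes outside those chosen here. The counts of these lists stand beside 34.8% of all genes and 52.1% of those not dim called with IMQ alone. With IMQ in cells with PA these shares were 35.3% and 53.3%, with PA in cells with IMQ 21.1% and 32.2%, and with PA alone 1.49% and 2.12%. Whether the lists differ from these shares was not tested. Of the 13 subunits encoded in mitochondrial DNA, 10 were measured, and with IMQ alone 8 fell and 0 rose (7 and 0 without the arrays that stood apart), with a median of -0.29. ND3, a membrane subunit of complex I, read 11.85, 11.81, 11.78 and 11.80 in IMQ cells, against 12.47, 12.45, 12.47 and 12.55 in mock cells, and fell by 0.68 ± 0.0414 (SE, adjusted p = 1.44e-09) without overlap. ND4L fell by 0.46 and ND2 by 0.40, while COX1, of complex IV, and ND6, of complex I, were not called. In cells with PA, 5 of the 10 fell with IMQ and 0 rose (6 and 0). With PA in cells with IMQ, ND3 rose by 0.23 and no other was called. Nuclear copies of mitochondrial DNA can share such probes.

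Of 35 measured assembly factors outside the chosen names, 11 rose and 9 fell with IMQ alone (6 and 4 without the arrays that stood apart). Cox17, a chaperone that brings copper to complex IV, read 9.22, 9.11, 9.13 and 9.14 in IMQ cells, against 8.43, 8.35, 8.33 and 8.45 in mock cells, and rose by 0.76 ± 0.0483 (SE, adjusted p = 2.19e-09). It rose by a further 0.44 with PA in cells with IMQ. Cox18 and Sco1, which insert a subunit and deliver copper, rose by 0.63 and 0.63, and Tmem126b, of complex I assembly, fell by 0.65. In cells with IMQ and PA, against PA, 8 rose and 9 fell (7 and 7).

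Regulators of mitochondrial gene expression split evenly with IMQ alone, 4 higher and 4 lower of 18, and 1 higher and 2 lower without the arrays that stood apart. Ppargc1b, a coactivator of mitochondrial genes, read 4.79, 5.29, 5.46 and 5.08 in IMQ cells, against 6.27, 6.27, 6.40 and 6.25 in mock cells. It fell by 1.15 ± 0.107 (SE, adjusted p = 2.55e-07) and was higher by 0.66 ± 0.107 (SE, adjusted p = 0.000271) in IMQ and PA cells than in IMQ cells, without overlap in either comparison. Its relative Ppargc1a was dim in all groups. Tfb1m, an rRNA methyltransferase of mitochondria, rose by 0.59, and Nrf1 rose by 0.19, a change of 0.21 without those arrays (adjusted p = 0.166). Esrra changed by 0.12 (adjusted p = 0.257) and Tfam, which packages mitochondrial DNA, by -0.01 (adjusted p = 0.962).

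Of 20 genes for other entries to ubiquinone and for its synthesis, 3 rose with PA alone. These were Coq3 (0.45), of ubiquinone synthesis, and Etfb (0.43) and Etfdh (0.21), which carry electrons from fatty acid oxidation. Without the arrays that stood apart all 3 calls were lost, Coq3 at 0.27 (adjusted p = 0.603), Etfb at 0.25 (adjusted p = 0.761) and Etfdh at 0.21 (adjusted p = 0.644). With PA in cells with IMQ, 10 rose and 1 fell (8 and 1 without those arrays). With IMQ alone 6 rose and 7 fell (5 and 5). The largest rise was that of Gpd2, the glycerol phosphate dehydrogenase that feeds electrons from the cytosol, which read 8.79, 8.82, 8.89 and 8.73 in IMQ cells, against 7.40, 7.5, 7.54 and 7.37 in mock cells, a rise of 1.35 ± 0.0570 (SE, adjusted p = 1.56e-11). Etfb fell by 0.70 ± 0.0789 (SE, adjusted p = 2.02e-06).

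Of 15 measured carriers and modulators of the chain, 5 rose and 6 fell with IMQ alone (4 and 5 without the arrays that stood apart). Nos2, the inducible nitric oxide synthase, read 11.84, 11.71, 11.78 and 11.75 in IMQ cells, against 7.77, 7.96, 7.96 and 5.57 in mock cells, and rose by 4.45 ± 0.477 (SE, adjusted p = 1.21e-06). The lowest of these, mock replicate 4, is the mock array that did not stand apart by Il6. Against this 1 mock array, without the 5 arrays, the rise was 6.20, a value with no spread of mock arrays behind it. Without mock replicate 4 the rise was 3.87 ± 0.339 (SE, adjusted p = 2.66e-07). Acod1, whose product itaconate inhibits complex II, rose by 2.31 ± 0.0812 (SE, adjusted p = 2.09e-12), and Hif1a, a regulator of glycolytic genes, by 1.22 ± 0.0479 (SE, adjusted p = 6.74e-12). Higd2a, which takes part in supercomplex formation, fell by 0.71, the phosphate carrier Slc25a3 by 0.49 and the ADP/ATP carrier Slc25a5 by 0.45. Hccs, which attaches heme to cytochrome c, changed by 0.01 with IMQ alone but read 9.24, 9.08, 9.33 and 9.29 in IMQ and PA cells, against 8.36, 8.16, 8.34 and 8.24 in IMQ cells. Its groups were far apart there, with a rise of 0.96 ± 0.0609 (SE, adjusted p = 9.9e-09), and its interaction was 0.91 ± 0.0861 (SE, adjusted p = 2.58e-06).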

How the data were processed

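RNA of 16 samples (4 groups of 4) was measured on 1-colour Affymetrix mouse gene arrays. The deposited values are log2 signals, made with RMA and affy per the submitters' processing notes, which give no versions. RMA corrects background, normalises arrays by quantiles and summarises probes, so a change shared by most genes would be removed. An array has no read depth, and the number of arrays limits the precision.

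The table held 41345 probe sets, of which 23521 carried 1 gene symbol, 1814 several and 16010 none in the platform annotation. Single-symbol probe sets were used, and for 1082 genes with several the one with the highest mean, which left 22180 genes (10 of the 89 members had several). A RefSeq table (GRCm38.p6), used for names and promoters, held the gene of 23328 of these. No genome build for the array is given in the sources used here.

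A fit of 4 group means to 16 arrays was made with limma 3.58.1 in R 4.3.3 (lmFit, eBayes, 12 residual and 2.96 prior degrees of freedom), two-sided, with Benjamini-Hochberg adjustment over 22180 genes and a threshold of 0.05. The dim level is the 95th percentile of the means of 1443 sensory receptor genes, and 8641 genes were dim. Genes described in full were the 4 highest and the 4 lowest called changes of each comparison, the largest called change of each complex, and preset genes (Ndufs1, Ndufv1, Ndufa4, Ndufa4l2, Sdha, Sdhb, Uqcrc1, Cyc1, Cycs, Cox4i1, Cox4i2, Cox5a, Cox7a2l, Atp5a1, Atp5b and Atp5if1, the last not analysed here). Of other lists, up to 3 called genes in the main direction and 1 in the other were admitted, with 8 preset genes. The members, lists, rules and the setting without arrays that stand apart were chosen with earlier results of these data known.

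Alternatives were a repeated quantile normalization, median centring, trended and robust variances, the replicate number as a block, only the groups compared, dim genes left out, the mean of a gene's probe sets, each array left out, and leaving out the 5 arrays that stand apart. Leaving out arrays of a group that a comparison does not use leaves its changes as they were. Only the shared spread and the adjustment then move. The fit was tested on simulated data, with 200 of 22180 genes changed by 0.5, 1 or 2. Changes of 0.5 were recovered in 61.2% to 77.6% of cases in comparisons of 2 groups and in 43.3% for the interaction. False calls made up 2.86% to 6.32% of calls. Changes under 0.5, as many here are, were not simulated, so a gene not called may still have changed.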

Additional observations from a re-analysis of the deposited data

Results flagged for a closer look

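For 15 genes the change with PA in cells with IMQ differed from that in cells without IMQ by the interaction test (limma, adjusted p under 0.05). In complex I the difference was 0.45 for Ndufa1, 0.33 for Ndufa11, 0.35 for Ndufa7, -0.20 for Ndufa6 and -0.36 for Ndufb3. In complex III it was 0.41 for Uqcrfs1, 0.36 for Uqcrh and 0.28 for Uqcr11. In complex IV it was -1.44 for Cox6a2, 0.36 for Ndufa4, 0.31 for Cox7a2 and 0.28 for Cox6b1. It was -0.38 for Cox7a2l, and in complex V 0.36 for Atp5k and -0.17 for Atp5b. Without the 5 arrays that stood apart, 4 of the 15 passed, which were Ndufa1, Ndufa11, Uqcrfs1 and Cox6a2. The call of Ndufb3 held in 11 of 23 alternative settings, and those of Atp5b, Ndufa6 and Uqcr11 in fewer.

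Single arrays lay far from the other 3 of their group by Dixon's test in 7 of 132 groups tested, where chance flags about 1 group in 20. In IMQ and PA cells these were a high Atp5g2 (10.5), a high Cox6b1 (9.41) and a high Sdhb (8.77). In IMQ cells it was a low Ndufa4l2 (3.87), and in mock cells a high Atp5g2 (11.0), a low Ndufv3 (7.63) and a low Sdhd (9.35).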

How the results depend on the processing

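The counts of called genes were recomputed under each alternative. With IMQ alone they lay between 39 and 44 when each array was left out in turn, and between 35 and 47 under the other alternatives, beside 43. With IMQ in cells with PA they lay between 47 and 52 (each array left out) and between 44 and 55, beside 52. With PA in cells with IMQ they lay between 18 and 26 and between 18 and 34, beside 23. For the interaction they lay between 10 and 13 with each array left out and between 11 and 21 under the others, except that without the 5 arrays that stood apart the count was 4, beside 15. With PA alone the count of 1 became 2 with trended and robust variances, and 0 both with only the groups compared and without the 5 arrays, by limma, where 9 and 5 genes had an unadjusted p under 0.05. The settings that gave 0 and 4 rest on fewer arrays, and the cause was not tested further.

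Replicate numbers paired the arrays weakly at most. Over 24 pairs with the same number in different groups, the correlation of deviations from group means lay between -0.118 and 0.173, with 4 over 0.1. Pairs with different numbers lay between -0.179 and 0.101, so the highest correlations were between arrays of the same number. Of 16 arrays, 5 correlated best with their own number. Some pairing of single replicates is thus not excluded. With the number as a replicate block, 1 gene was called for PA alone, 43 for IMQ alone, 22 for PA in cells with IMQ, 51 for IMQ in cells with PA and 11 for the interaction.

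Of 3044 values of the 128 single-gene results under these alternatives, 2910 stayed on their side of the threshold, 119 lost the call and 15 gained it, and 0 called values changed sign. Cyc1 with IMQ alone gained the call in 4 settings, at adjusted p between 0.00936 and 0.0454. The dim genes Ndufa4l2, Cox8b, Cox8c and Cox7b2 have signals too close to background to show a change.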

Other observations

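Second probe sets of 2 genes read lower with PA alone where the probe set used did not, at -0.38 beside 0.05 for Ndufa8 and at -0.41 beside 0.01 for Atp5d. With IMQ alone these second probe sets changed by -0.60 and -0.61, beside -0.19 and -0.25 for those used. One further Cycs probe set read -0.30 with PA in cells with IMQ, beside 0.11 for the one used. A second Ndufa11 probe set read 0.20 with IMQ alone, beside -0.09. These values were not tested.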
